A study of Mus musculus with 12 samples.

Results

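The genes described here are 9 members of the JAK-STAT pathway in mouse dendritic cells, namely the transcription factor genes Stat2, Stat3, Stat4 and Stat5a, the kinase gene Jak2, and the inhibitor genes Socs1, Socs2, Socs3 and Cish. They were taken by their symbols, after identifiers were matched to the GENCODE annotation, and they are 9 of the 55335 genes listed. The symbols were proposed with earlier results of these data known. The counts of these 9 beside the shares of all genes are therefore a description and not an independent test. All 9 passed the filter on low counts and were among the 14357 genes tested. RNA was measured by bulk sequencing in bone marrow-derived dendritic cells (BMDC), which were grown for 6 days with GM-CSF from the marrow of C57BL/6 mice, male and female, aged 8 to 12 weeks, and, by the study's methods, taken from the floating cells by CD11c beads, CD11c being the protein of Itgax. The labels gave 4 groups of 3 libraries. WT cells were untreated, WTL cells received lipopolysaccharide (LPS) at 100 ng/ml for 3 h, WT + JSH23 cells received JSH-23 at 100 µM for 3 h, and WTL + JSH23 cells received the same JSH-23 treatment followed by the same LPS treatment. LPS, a bacterial surface molecule, is a standard stimulus of dendritic cells, and JSH-23 is a small molecule used to keep RelA, a subunit of NF-κB, from entering the nucleus. The cells of all 4 groups carried the CreER transgene, an inducible Cre recombinase, with an intact Ctcf gene, so no group lacked the transgene. The paper describes 4-hydroxytamoxifen, the inducer of this Cre, as added to marrow cultures on the first day. Whether the cultures of these 4 groups received it was not settled from the sources used here. Untreated here means without LPS and JSH-23. No source used here states whether the groups without JSH-23 were given its solvent.

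In the JAK-STAT pathway a cytokine binds its receptor, a Janus kinase (JAK) attached to the receptor phosphorylates a STAT protein, and the STAT dimer enters the nucleus and switches genes on. The SOCS proteins and CIS, the product of Cish, are made in response to cytokines and shut the signal off again at the receptor or the kinase, so that their mRNA is a common readout of recent signalling. GM-CSF, the cytokine in which these cells were grown, acts through JAK2 and STAT5. LPS itself acts through a Toll-like receptor, which uses no JAK, and the cytokines and interferons that LPS-treated cells release act through JAKs and STATs. Only mRNA was measured here, and phosphorylation of the proteins was not.

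STAT dimers are known to bind the GAS motif, here TTCNNNGAA, and the interferon-stimulated response element (ISRE) is the motif of many interferon-induced genes, with a core that is here GAAA repeated with 2 bases between the copies. Both motifs and the κB consensus, the site of NF-κB, were looked for on both strands of the RefSeq promoter windows of GRCm38.p6, each reaching from 250 bases before to 50 bases after a transcription start. Windows were given for 8 of the 9 genes (10 windows), and Socs2 had none. A GAS was found for 2 genes, an ISRE core for 3 genes and a κB consensus for 1 gene, Stat5a, in its second window. The windows of Jak2 and Stat3 held none of the 3. Of all 32851 windows, 8.298% held a GAS, 3.443% an ISRE core and 8.459% a κB consensus. Counted by gene, as the members were, the shares were 9.554%, 3.993% and 9.55% of 27025 genes. The matches of the STAT motifs are shown in stretches of 30 bases, read on the strand of the gene, with the motif in capitals. They set apart which members carry the letters of a STAT site near the transcription start of a window. A match in letters is not a measured binding site, and no binding was measured in these libraries.
Socs1 (ISRE, chr16:10785597-10785626, minus strand): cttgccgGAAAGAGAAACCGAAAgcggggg
Stat2 (ISRE, chr10:128270266-128270295, plus strand): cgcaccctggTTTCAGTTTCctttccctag
Stat4 (ISRE, chr1:52008133-52008162, plus strand): aatgtcttcaGAAAGTGAAAtttagaacgg
Socs3 (GAS, chr11:117969501-117969530, minus strand): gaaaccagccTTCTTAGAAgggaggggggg
Cish (GAS, chr9:107296654-107296683, plus strand): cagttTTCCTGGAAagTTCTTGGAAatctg
The capitals of Socs1 are 2 ISRE cores that share 4 bases, and those of Stat2 are the ISRE core read on the opposite strand. The window of Cish held 2 GAS matches with 2 bases between them. They begin 0 and 11 bases from the transcription start of the window, so they lie at and after it and not before it. Both lie in an annotated exon, and the transcript that it belongs to was not looked up. The Stat4 match lies in the second of its windows. By the GENCODE positions given below, the matches of Socs3, Stat4 and Cish lie within the span of the gene. Those of Socs3 and Stat4 begin at -154 and -97 from the start of their own window.

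Total expected counts per library ran from 24664724 to 34837847. No pair of libraries within a group agreed within sampling noise, and WTL + JSH23 replicate 3 stood further from its group than any other library did, with a mean chi-square per gene of 8.18 and 9.11 against the other replicates where all other pairs had 2.33 to 4.50. Without that library, 1 of the calls given for the 9 genes changed, and it is named where Stat3 is described. Replicates of WT and WTL are numbered 4 to 6 and those of the JSH-23 groups 1 to 3, so JSH-23 and the set of numbers cannot be told apart. The labels gave no batch. The 10 dendritic cell markers summed to between 14495 and 18752 CPM per library. Cd74 had the largest part (group means of 7930 to 9810 CPM), and MHC class II genes, Itgax and Ccr7 were also high. Zbtb46 (61.4 to 128 CPM) and Irf4 (123 to 330 CPM) were lower. Batf3 (14.3 to 18.8 CPM) and Flt3 (5.14 to 8.55 CPM) were low, and Cd209a was near 0 (at most 5 counts). Macrophage markers also had a level, from 2536 to 2699 CPM in WT, 1947 to 2065 in WTL, 1788 to 1842 in WT + JSH23 and 1453 to 1499 in WTL + JSH23, and Cd163 was near 0 (at most 7 counts). CPM values here are counts set relative to each library total after TMM scaling, so that they can be compared between libraries. In bulk RNA, fewer cells of a type and less RNA per cell cannot be told apart.

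To see how LPS changed these genes, WTL was compared with WT. Of the 9 genes, 8 rose (edgeR quasi-likelihood test, Benjamini-Hochberg adjusted p under 0.05) and none fell, while of all genes tested 65.7% passed, 31.0% as rises and 34.7% as falls. Socs3, Cish, Stat5a and Socs1, 4 of the 9, rose more than 2-fold, as 7.36% of all genes did. In CPM, the libraries of WTL and WT did not overlap for any of the 9 genes, nor for 69.9% of all genes. The median log2 fold change of the 9 genes was 0.32, beside -0.05 over all genes. The rises of Socs2, Jak2, Stat4 and Stat3 were small, and they turned to falls on the authors' TPM values. On these the median of all genes lay 0.30 lower (log2, pseudocount 0.1) than with TMM scaling. The fall of Stat3 passed there (limma on log2(TPM + 1), -0.17, adjusted p = 0.00332), while those of Socs2, Jak2 and Stat4 were slight and did not pass.

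After JSH-23, LPS raised 7 of the 9 genes and lowered Stat2, and Stat3 did not pass. The small rise of Jak2 did not pass under upper quartile scaling and turned to -0.05 on log2(TPM + 1). On that scale Stat3 passed as a fall (limma, -0.17, adjusted p = 0.00393). Of all genes, 54.5% passed in this comparison, 27.4% as rises and 27.1% as falls. Socs3, Socs1 and Stat5a rose more than 2-fold, as 5.85% of all genes did, and Cish did not. The median of the 9 genes was 0.37, beside -0.02 over all genes. JSH-23 was also compared at each state. In the resting cells (WT + JSH23 against WT), 5 of the 9 genes fell and 2, Cish and Stat4, rose, where 41.0% of all genes passed, 22.1% as falls and 18.8% as rises. Socs1 and Socs3 fell more than 2-fold, as 2.94% of all genes did. Under LPS (WTL + JSH23 against WTL), 8 genes fell and Stat4 rose, where 48.7% of all genes passed, 24.2% as falls and 24.5% as rises. Socs3 alone of the 9 fell more than 2-fold, as 3.25% of all genes did, with Socs1 just short of it at -0.99 and just past it with DESeq2 (-1.01). The median change of the 9 genes was -0.26 at rest and -0.42 under LPS, beside -0.01 and 0.02 over all genes. These comparisons share libraries with one another, so their counts are not independent.

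**Figure D1:**
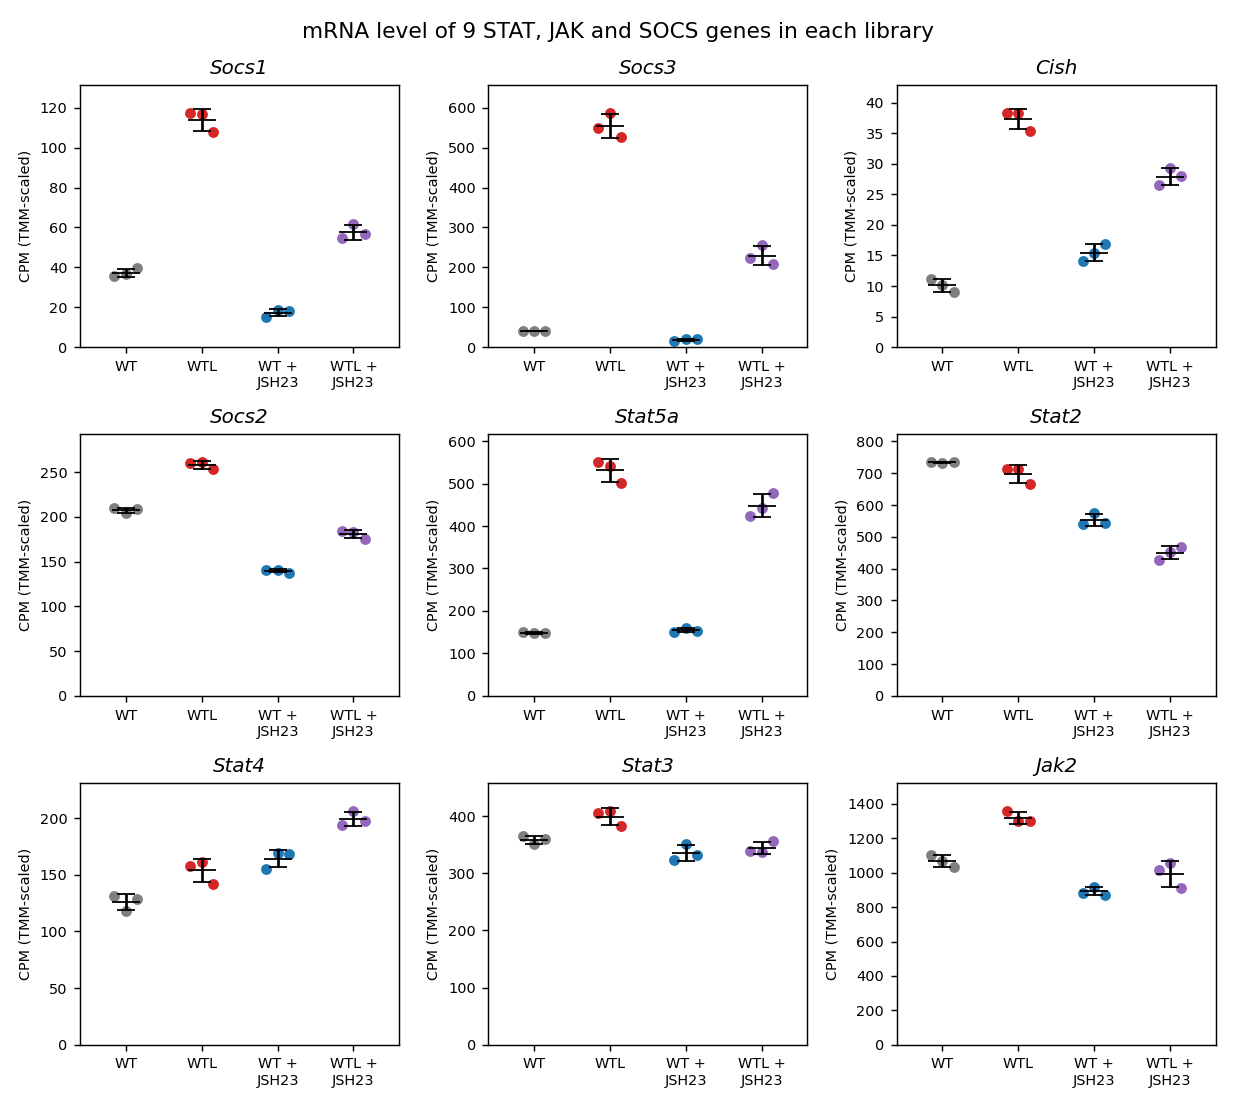
Level of the 9 genes in each library, in CPM after TMM scaling on linear axes that start at 0, by group. Points are libraries, the long bar is the mean and the whiskers the SD over 3 libraries. Socs3, Socs1, Stat5a and Cish are high in both groups with LPS, and Stat4 is highest in WTL + JSH23, between 194 and 207 CPM.

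Whether JSH-23 changed the size of the LPS response was tested as the interaction, the log2 change with LPS after JSH-23 minus that without. It passed for 3 of the 9 genes, Cish, Stat5a and Stat2, all with a lower value after JSH-23, where of all genes tested 18.0% passed and 8.44% passed with a lower value. Cish alone of the 9 was lower by more than 2-fold, as 0.404% of all genes were. The other 6 genes did not pass, and their log2 interactions ran from -0.16 (Socs3) to 0.13 (Socs1). The median of the 9 genes was -0.15, beside 0.03 over all genes.

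**Figure D2:**
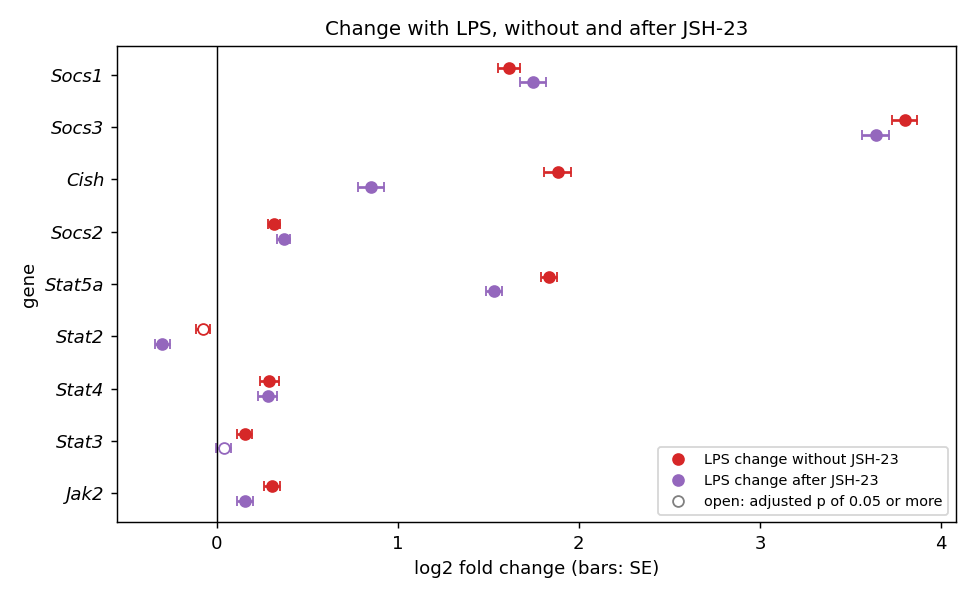
Log2 fold change with LPS for the 9 genes, without JSH-23 (red) and after JSH-23 (purple), with bars of 1 SE from edgeR, and open points for an adjusted p of 0.05 or more. The pair of points of Cish lies furthest apart, at 1.88 and 0.85, and the points of Socs3 and Socs1 lie close together. The points of Socs2, Jak2, Stat4 and Stat3 without JSH-23 fall to or below 0 on TPM values.

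Socs3 encodes an inhibitor that binds JAKs and the IL-6 receptor subunit gp130, and it is known as a target of STAT3. It lies at chr11:117966079-117970047 on the minus strand (GRCm38, GENCODE M21, protein coding). It had 39.4, 39.8 and 40.3 CPM in WT and 550, 587 and 526 CPM in WTL. After JSH-23 it had 16.1, 19.2 and 20.1 CPM without LPS and 223, 255 and 209 CPM with it. The 4 groups were fully apart, in the order WTL, WTL + JSH23, WT and WT + JSH23. The log2 fold change with LPS was 3.80 (SE 0.07, adjusted p = 9.59e-21), which was 13.9-fold and the largest change of the 9 genes, and after JSH-23 it was 3.64 (SE 0.08, adjusted p = 1.2e-19). JSH-23 lowered it by 1.11 on the log2 scale at rest (log2 fold change -1.11, SE 0.08, adjusted p = 2.5e-10) and to a similar degree under LPS (-1.27, SE 0.06, adjusted p = 3.38e-13). The interaction was -0.16 (SE 0.10, adjusted p = 0.306). Socs3 was thus lower with JSH-23 in both states, and a difference between its fold rises did not pass the test. In CPM, the rise between group means was 514 without JSH-23 (486 to 547 over pairs of libraries) and 211 after it (189 to 239).

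Socs1 encodes an inhibitor that acts directly on JAK kinases and restrains interferon signalling. It lies at chr16:10782240-10785536 on the minus strand, and its window held the overlapping pair of ISRE cores shown above. It had 35.6, 36.8 and 39.6 CPM in WT and 117, 117 and 108 CPM in WTL. After JSH-23 it had 15.1, 18.7 and 17.9 CPM without LPS and 54.6, 61.8 and 56.5 CPM with it. As for Socs3, no groups overlapped and their order was WTL, WTL + JSH23, WT and WT + JSH23. The log2 fold change with LPS was 1.61 (SE 0.06, adjusted p = 1.4e-15) without JSH-23 and 1.75 (SE 0.07, adjusted p = 6.93e-15) after it. JSH-23 lowered Socs1 at rest (-1.12, SE 0.07, adjusted p = 3.62e-11) and under LPS (-0.99, SE 0.06, adjusted p = 1.3e-11). The interaction was 0.13 (SE 0.09, adjusted p = 0.375). The rise in CPM was 76.7 without JSH-23 (68.1 to 81.8 over pairs of libraries) and 40.4 after it (36.0 to 46.6).

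Cish encodes CIS, an inhibitor induced by STAT5 that binds cytokine receptors, and it was the least abundant of the 9 genes in each group. It lies at chr9:107296026-107302784 on the plus strand. It overlaps Gm17040 and Gm17041 on the opposite strand, which held at most 4.11 and 0 counts in a library. Its level was 11.2, 10.1 and 9.0 CPM in WT and 38.3, 38.3 and 35.4 CPM in WTL. After JSH-23 it was 14.1, 15.4 and 16.9 CPM without LPS and 26.5, 29.3 and 28.0 CPM with it. The groups did not overlap, and unlike Socs1 and Socs3, Cish was lowest in WT and not in WT + JSH23. The rise with LPS was 1.88 on the log2 scale (SE 0.07, adjusted p = 2.85e-15) without JSH-23 and 0.85 (SE 0.07, adjusted p = 2.29e-09) after it. JSH-23 raised it at rest (0.61, SE 0.08, adjusted p = 2.61e-06) and lowered it under LPS (-0.42, SE 0.07, adjusted p = 2.07e-05). Cish was the one gene of the 9 on which JSH-23 acted in opposite directions at rest and under LPS with both changes past the threshold. The interaction was -1.03 (SE 0.11, adjusted p = 1.08e-06) and ran from -1.11 to -0.96 as each library was left out in turn, so that it fell just short of 2-fold without WT replicate 6, WT + JSH23 replicate 3 or WTL + JSH23 replicate 1 (-0.96, -0.96 and -0.99). The rise was 27.2 CPM without JSH-23 and 12.5 CPM after it.

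Socs2 encodes an inhibitor known for restraining growth hormone signalling and induced through STAT5. It lies at chr10:95385362-95417180 on the minus strand, and RSEM divided some of its reads with other genes, since its expected counts were fractional in all 12 libraries. It had 210, 204 and 208 CPM in WT and 260, 261 and 253 CPM in WTL. After JSH-23 it had 141, 141 and 138 CPM without LPS and 184, 183 and 175 CPM with it. All 4 groups were apart in CPM, and both JSH-23 groups lay below WT. On TPM values WTL (176.6 to 189.1) overlapped WT (182.0 to 188.7). JSH-23 lowered Socs2 at rest (-0.57, SE 0.04, adjusted p = 2.34e-11) and under LPS (-0.51, SE 0.04, adjusted p = 8.02e-11), and LPS after JSH-23 left it below WT (WTL + JSH23 against WT, -0.20, SE 0.04, adjusted p = 4.71e-05), a comparison in which 62.1% of all genes passed, 31.4% as falls. The rise with LPS was 0.32 (SE 0.03, adjusted p = 6.5e-08), but -0.02 on log2(TPM + 1). After JSH-23 it was 0.37 (SE 0.04, adjusted p = 1.37e-08). The interaction of 0.05 did not pass (adjusted p = 0.512), though it passed on log2(TPM + 1) in limma at 0.21 (adjusted p = 0.0229).

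**Figure D3:**
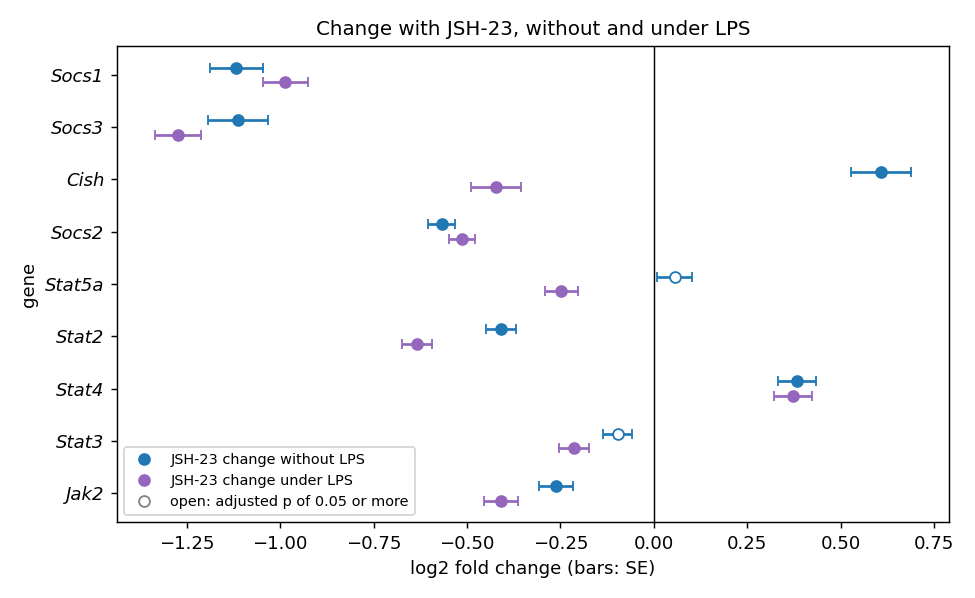
Log2 fold change with JSH-23 for the 9 genes, in resting cells (blue) and under LPS (purple), with bars of 1 SE from edgeR, and open points for an adjusted p of 0.05 or more. Socs1, Socs3, Socs2, Stat2 and Jak2 lie left of 0 in both states, Stat4 lies right of 0 in both (0.38 and 0.37), and Cish lies on opposite sides (0.61 and -0.42).

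Stat5a encodes one of the closely related STAT5 proteins, which carry the GM-CSF signal. It lies at chr11:100859351-100885169 on the plus strand. Its last 72 bases overlap an exon of Stat3 on the opposite strand, a stretch shorter than the reads of 100 bases, and the counts of Stat3 were fractional in 0 libraries. The counts of Stat5a were fractional in all 12 libraries, and how reads were divided between Stat5a and its near-identical copy Stat5b is uncertain. It had 151, 148 and 148 CPM in WT and 551, 541 and 501 CPM in WTL. After JSH-23 it had 150, 160 and 154 CPM without LPS and 423, 442 and 477 CPM with it. The resting groups overlapped, and both groups with LPS lay far above them. With LPS the rise of Stat5a was 1.83 on the log2 scale (SE 0.05, adjusted p = 1.62e-18), or 3.57-fold, and after JSH-23 it was 1.53 (SE 0.05, adjusted p = 5.53e-17), or 2.89-fold. JSH-23 gave 0.06 at rest (adjusted p = 0.367) and -0.25 under LPS (SE 0.04, adjusted p = 8.04e-05). The interaction was -0.30 (SE 0.06, adjusted p = 0.0022). On log2(TPM + 1) in limma it was -0.15 and did not pass (adjusted p = 0.158), and neither did the fall under LPS (-0.12, adjusted p = 0.0534). Stat5b, from the list of other STATs, rose with LPS from 67.6 ± 2.99 to 122 ± 3.74 CPM (SD, n = 3, log2 fold change 0.86), and by 0.57 after JSH-23. Its interaction also passed, at -0.28 (SE 0.07, adjusted p = 0.00578).

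Stat2 encodes a STAT that acts downstream of type I interferon. It lies at chr10:128270559-128292849 on the plus strand, and it overlapped no other gene. It had 736, 732 and 735 CPM in WT and 713, 713 and 665 CPM in WTL. After JSH-23 it had 540, 575 and 545 CPM without LPS and 428, 452 and 469 CPM with it. In CPM, Stat2 was the one gene of the 9 with its highest level in WT and its lowest in WTL + JSH23, and no groups overlapped. On mean TPM, Jak2 and Stat3 had their highest and lowest levels in these groups as well. The TPM ranges of Stat2 overlapped between WTL (284.4 to 290.4) and WT + JSH23 (273.3 to 304.0). JSH-23 lowered it at rest (-0.41, SE 0.04, adjusted p = 3.2e-08) and more so under LPS (-0.63, SE 0.04, adjusted p = 2.97e-11). With LPS alone the change of -0.08 did not pass (SE 0.04, adjusted p = 0.106), although it passed under upper quartile scaling (-0.16, adjusted p = 0.00103) and on log2(TPM + 1) (-0.41, adjusted p = 2.15e-06). After JSH-23, LPS lowered Stat2 by 0.30 on the log2 scale (-0.30, SE 0.04, adjusted p = 2.13e-06). The interaction of -0.22 passed (SE 0.06, adjusted p = 0.00893), and on log2(TPM + 1) it was -0.08 and did not (adjusted p = 0.413).

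Stat4 encodes the STAT that carries IL-12 signals in T and NK cells and is also found in activated dendritic cells. It lies at chr1:51987148-52107189 on the plus strand. It shares 1033 exon bases with Gm28177 on the same strand, which held 15.2 to 83.0 counts per library, and its own counts of 3092 or more were fractional in all libraries. Its level was 131, 118 and 129 CPM in WT and 158, 161 and 142 CPM in WTL. After JSH-23 it was 155, 169 and 168 CPM without LPS and 194, 207 and 198 CPM with it. It was the one gene of the 9 that JSH-23 raised in both states. In CPM, WTL + JSH23 was above all other groups, while WTL and WT + JSH23 overlapped. On TPM values WTL + JSH23 (119.6 to 124.4) overlapped WT + JSH23 (117.0 to 125.1). JSH-23 raised Stat4 by 0.38 at rest (SE 0.05, adjusted p = 2.12e-06) and by 0.37 under LPS (SE 0.05, adjusted p = 2.36e-06). LPS gave 0.29 without JSH-23 (SE 0.05, adjusted p = 3.45e-05) and 0.28 after it (SE 0.05, adjusted p = 6.39e-05), but -0.01 and 0.02 on log2(TPM + 1), where neither passed. The interaction was -0.01 (adjusted p = 0.947). Of 10 markers of T and NK cells, 1 (Cd28) passed the low filter. Their sum ran from 1.47 to 2.10 CPM in WT, 1.2 to 1.67 in WTL, 2.92 to 3.30 in WT + JSH23 and 1.51 to 2.09 in WTL + JSH23. The sum was thus higher with JSH-23 at rest, as Stat4 was, and overlapped between WTL and WTL + JSH23, and Cd28 made up most of it in WT + JSH23 (a mean of 2.16 CPM). The part of T and NK cells in the change of Stat4 was not tested. No library had more than 13 counts of Cd3d, Cd3e or Cd3g, and Cd8b1 was at 0 in both JSH-23 groups.

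Stat3 encodes the STAT that answers IL-6 and IL-10. It lies at chr11:100885098-100939540 on the minus strand. Its level was 365, 351 and 360 CPM in WT and 405, 409 and 383 CPM in WTL. After JSH-23 it was 323, 351 and 331 CPM without LPS and 339, 338 and 356 CPM with it. It varied least of Stat2, Stat3, Stat4 and Stat5a. In CPM the ranges of WT, WTL + JSH23 and WT + JSH23 overlapped as neighbours, with WTL above them. On TPM values WTL (134.5 to 136.0) lay below WT (147.6 to 154.5). LPS gave 0.16 without JSH-23 (SE 0.04, adjusted p = 0.00184), which was 0.07 and did not pass under upper quartile scaling (adjusted p = 0.0965). On log2(TPM + 1) in limma it was -0.17 and passed as a fall (adjusted p = 0.00332). After JSH-23 the change was 0.04 (adjusted p = 0.444), but -0.17 on log2(TPM + 1) in limma, which passed as a fall (adjusted p = 0.00393). JSH-23 lowered Stat3 under LPS (-0.21, SE 0.04, adjusted p = 0.000138). At rest the change was -0.10 and did not pass (adjusted p = 0.0591), and it passed when WT + JSH23 replicate 2 (-0.13, adjusted p = 0.0177) or WTL + JSH23 replicate 3 (-0.10, adjusted p = 0.0378) was left out. The interaction was -0.12 (adjusted p = 0.167).

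Jak2 encodes the kinase bound to the receptors of GM-CSF, IL-12 and interferon-γ, among others. It lies at chr19:29251828-29313080 on the plus strand and overlapped no other gene. Its level was 1102, 1069 and 1034 CPM in WT and 1360, 1299 and 1299.8 CPM in WTL. After JSH-23 it was 885, 917 and 873 CPM without LPS and 1017, 1055 and 909 CPM with it. In CPM, WTL was above all other groups, and WTL + JSH23 overlapped both WT and WT + JSH23, with its replicate 3 the lowest of its group. On TPM values WTL (344.8 to 364.8) overlapped WT (352.4 to 378.1). JSH-23 lowered Jak2 at rest (-0.26, SE 0.05, adjusted p = 7.5e-05) and under LPS (-0.41, SE 0.05, adjusted p = 1.56e-07). LPS raised it by 0.31 (SE 0.05, adjusted p = 4.91e-06) without JSH-23, though the value was -0.03 on log2(TPM + 1). After JSH-23 the rise was 0.16 (SE 0.05, adjusted p = 0.00626), 0.22 without WTL + JSH23 replicate 3 and 0.11 without its replicate 2, where it no longer passed (adjusted p = 0.0549), and on log2(TPM + 1) the value was -0.05. Under upper quartile scaling it was 0.07 and did not pass either (adjusted p = 0.189). The interaction of -0.15 did not pass (adjusted p = 0.119). It passed with DESeq2 (-0.17, adjusted p = 0.0469) and without WTL + JSH23 replicate 2 (-0.19, adjusted p = 0.0388).

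Levels of different genes were compared on the authors' TPM values, which are scaled for transcript length, as means over 3 libraries and without a test. In WT, Stat2 (383 TPM) and Jak2 (363 TPM) led, followed by Socs2 (186 TPM) and Stat3 (152 TPM). Stat4 (88.8 TPM) and Stat5a (86.3 TPM) were lower, and the inhibitors Socs3 (28.2 TPM), Socs1 (23.6 TPM) and Cish (5.25 TPM) were lowest. In WTL, Socs3 moved from place 7 to place 2 with 311 TPM, behind Jak2 (357 TPM) and ahead of Stat2 (287 TPM), and Stat5a reached 255 TPM. In WTL + JSH23, Jak2 had 292 TPM, Stat5a 235 TPM, Stat2 202 TPM and Socs3 140 TPM. Of Stat2, Stat3, Stat4 and Stat5a, Stat2 was thus the most abundant in WT and Stat5a in WTL + JSH23. Other STAT genes were not ranked on TPM.

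**Figure D4:**
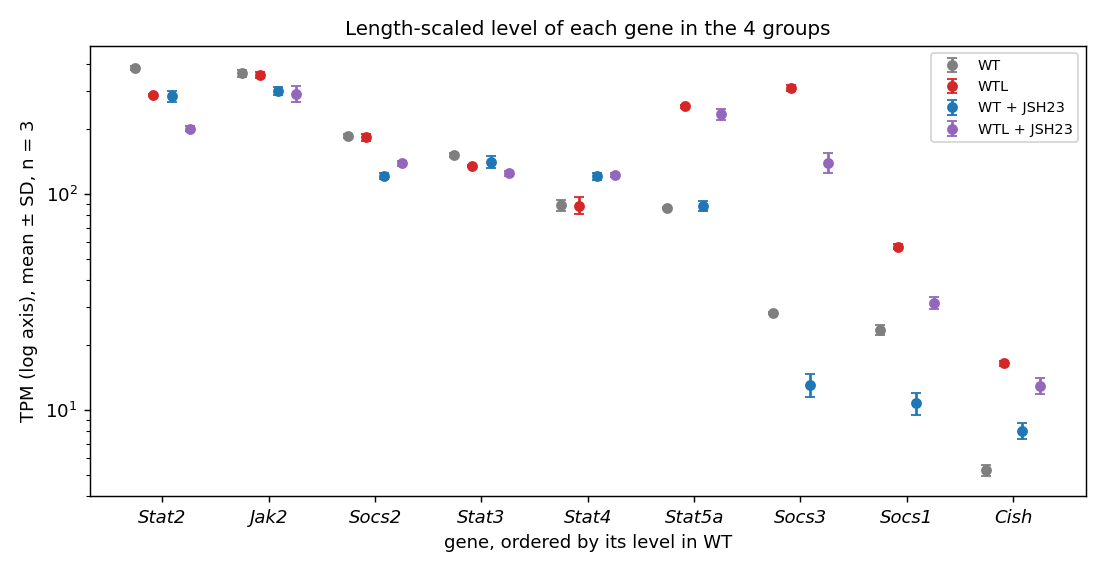
Length-scaled level of each gene in TPM on a log axis, by group, with genes ordered by their level in WT. Points are means and whiskers SD over 3 libraries. Socs3 moves furthest, between 13.1 TPM in WT + JSH23 and 311 TPM in WTL, and Jak2 and Stat3 move little.

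Other genes of the pathway were described by 9 lists of 88 genes, of which 77 were tested. With LPS, 65 of the 77 passed, 42 as rises and 23 as falls, with a median log2 fold change of 0.21, where of all genes tested 65.7% passed, 31.0% as rises and 34.7% as falls. This split depended on the scaling, with 31 rises, 36 falls and a median of -0.12 on log2(TPM + 1), on which 8 of the 42 rises had a lower value and 3 of these passed as falls. With JSH-23, most of the passing genes were lower, 42 of 55 at rest and 43 of 53 under LPS, with medians of -0.19 and -0.20, where of all genes tested 41.0% passed at rest (22.1% as falls) and 48.7% under LPS (24.2% as falls). The 9 genes described above were not counted in these lists, and Stat4 and, at rest, Cish were on the less frequent side.

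Among the ligands, the cytokines that start JAK-STAT signalling, 13 of 14 tested rose with LPS and 1 fell, with a median log2 fold change of 3.69. Of all genes tested, 31.0% rose and 34.7% fell. Il6, which signals through JAKs to STAT3, rose from 30.2 ± 2.38 to 1845 ± 105 CPM (SD, n = 3, log2 fold change 5.93), and after JSH-23 from 46.7 ± 6.82 to 1230 ± 77.3 CPM (4.72, interaction -1.21, adjusted p = 1.63e-07). Il12b, a subunit of IL-12 and IL-23, rose from 114 ± 5.58 to 2696 ± 268 CPM and after JSH-23 from 275 ± 30.1 to 1730 ± 154 CPM (interaction -1.92, adjusted p = 1.49e-10). Like Cish, Il6 and Il12b were higher with JSH-23 at rest and lower with it under LPS. Il12a, the other subunit of IL-12, was lower with it in both states, and its interaction had the opposite sign. It rose with LPS from 2.71 ± 0.257 to 88.7 ± 1.44 CPM, and after JSH-23 from 0.568 ± 0.0529 to 35.1 ± 2.80 CPM (interaction 0.91 on the log2 scale, adjusted p = 0.00318). Of the 14 ligands, the interaction passed with a lower value for 6 and with a higher value for 1, Il12a. It passed for 18.0% of all genes tested, and with a lower value for 8.44%. After JSH-23, 12 of the 14 ligands rose with LPS and none fell, with a median of 2.65, where 27.4% of all genes rose and 27.1% fell. Csf2, the gene of GM-CSF itself, did not pass the low filter, with 0.0230 CPM in WT and 0.212 CPM in WTL.

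On the receptor side, Csf2rb, the shared signalling chain of the GM-CSF receptor, fell with LPS from 2559 ± 30.2 to 1242 ± 58.2 CPM (SD, n = 3, log2 fold change -1.04, adjusted p = 7.82e-16) and after JSH-23 from 2167 ± 78.7 to 1246 ± 21.3 CPM. Its levels with LPS, with and without JSH-23, differed by 0.01 on the log2 scale (adjusted p = 0.925). Il6ra and Il6st, which form the IL-6 receptor, fell with LPS by log2 fold changes of -3.29 and -1.90. After JSH-23 they fell by -3.00 and -1.01, and the interaction passed for Il6st (0.89, adjusted p = 2.6e-08). Of the 24 other receptors tested, 8 rose and 11 fell with LPS (4 and 14 on log2(TPM + 1)), and 16 fell and 2 rose with JSH-23 at rest. Of all genes tested, 31.0% rose and 34.7% fell with LPS, and 22.1% fell and 18.8% rose with JSH-23 at rest.

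Genes known as targets of the members' proteins were also listed. Of 6 STAT5 targets tested, 3 rose with LPS, each more than 2-fold, and 3 fell, 1 of them more than 2-fold. Of all genes tested, 31.0% rose, 7.36% more than 2-fold, and 34.7% fell. Bcl2l1, a survival gene, rose by a log2 fold change of 3.09, Pim1, a kinase gene, by 1.87, and Ccnd2, a cyclin gene, by 1.49. After JSH-23 these rises were 2.47, 1.27 and 1.01, and the interaction passed for each (-0.62, -0.60 and -0.48, with adjusted p = 1.34e-05, 8.01e-06 and 1.99e-05). Bcl6, a repressor gene, fell with LPS from 96.8 ± 1.28 to 74.5 ± 5.02 CPM, and after JSH-23 it had 86.9 ± 0.372 and 83.1 ± 2.36 CPM, with an interaction of the opposite sign (0.31, adjusted p = 0.00146). Of 8 STAT3 targets, 5 rose and 2 fell with LPS, beside the same shares of all genes (31.0% and 34.7%). Of the other inhibitors, Usp18, which restrains interferon signalling, rose with LPS from 263 ± 6.65 to 423 ± 22.5 CPM, and after JSH-23 it had 166 ± 5.21 and 174 ± 6.21 CPM (interaction -0.62, adjusted p = 6.61e-07). Ptpn6, a phosphatase gene, was lower with JSH-23 in both states (-0.88 and -0.81).

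**Figure D5:**
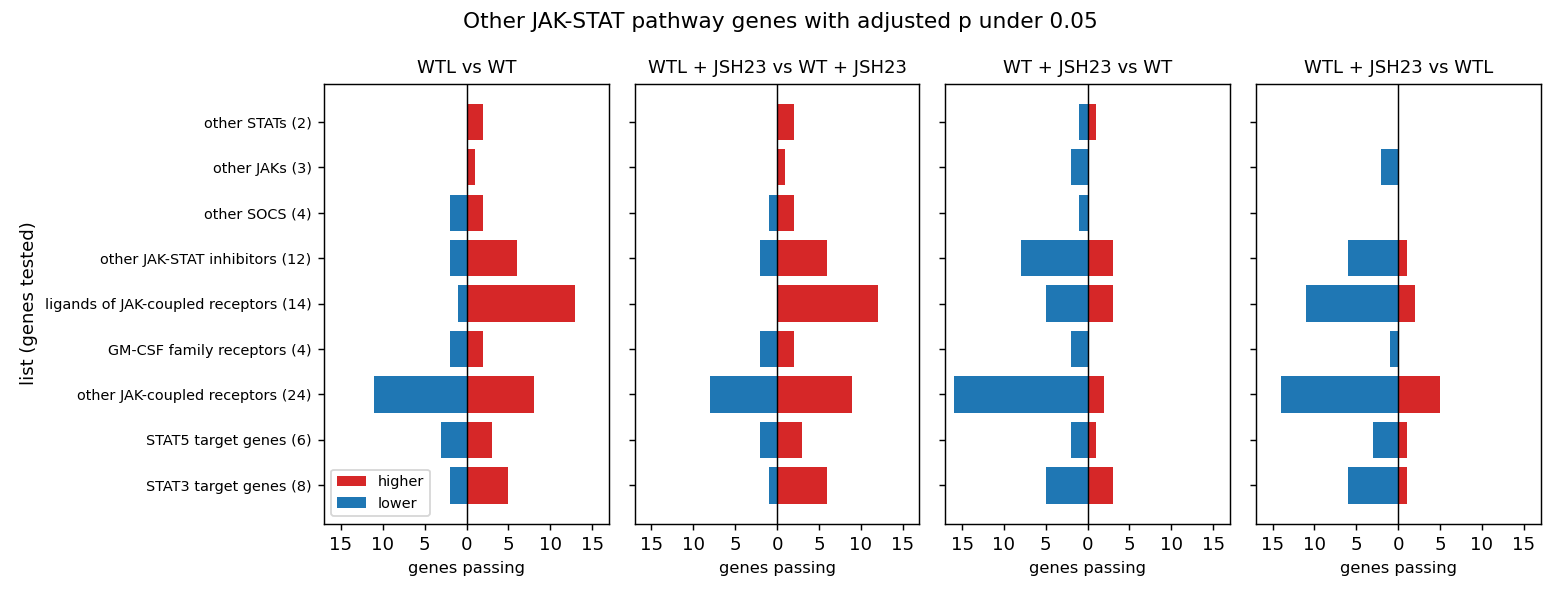
Number of genes on each list of other JAK-STAT pathway genes with an adjusted p under 0.05 (edgeR), higher to the right in red and lower to the left in blue, in 4 comparisons, with the number tested in brackets. The ligands are nearly all higher with LPS (13 of 14), and most of the other receptors are lower with JSH-23 at rest (16 of 24). Of all genes tested, 31.0% were higher with LPS and 22.1% lower with JSH-23 at rest.

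The genes whose pattern was most like that of each member were taken from 7584 protein-coding genes by Pearson r of log2 CPM over the 12 libraries. The libraries share their 4 groups, so r describes the order and spacing of the groups and was given no p value. For Socs3 they were Nfkbie, Sdc4 and Schip1 (each r = 0.999). Stat5a was most like Sh3pxd2a and Traf1 (r = 0.999) and Mapkbp1 (r = 0.998). The genes nearest to Socs1 were Antxr2, Slc2a6 and Atxn7l1 (r = 0.996). For Cish they were Cox17 (r = 0.997), Il12b and Cry1 (r = 0.99). Socs2 had Frmd4b (r = 0.997), Apol7c (r = 0.996) and Nabp1 (r = 0.995), and Jak2 had Arcn1 (r = 0.99), H2-Eb2 (r = 0.989) and Foxn2 (r = 0.987). Stat2 was most like Ifit2 (r = 0.992), Tor3a (r = 0.991) and Parp10 (r = 0.989). Stat4 had Il1r2 (r = 0.982), Tmem63a (r = 0.975) and Zfp655 (r = 0.966). The closest genes to Stat3 had the lowest r of the 9, with Nfatc1 (r = 0.968), Tbc1d10b (r = 0.963) and Tmem184b (r = 0.957). Among the members themselves, Socs1 and Socs3 were most alike (r = 0.967), and Stat2 and Stat4 ran opposite (r = -0.875).

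Of the 10 macrophage markers, 9 passed the low filter. Their sum was lower with JSH-23 at rest and under LPS, in the ranges given above, as were Socs1, Socs2, Socs3, Stat2 and Jak2. The sum was also lower with LPS, where Socs1, Socs2, Socs3 and Jak2 rose. The part of macrophages in the changes of these genes was not tested.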

How the data were processed

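RNA-seq of 12 libraries in 4 groups was analysed. The authors trimmed reads with Trim Galore, aligned them to mm10 with STAR and ran RSEM. The submitters' processing notes give STAR 2.6.0c and the paper another release. The deposited expected counts are estimated counts per gene with no normalization between libraries, and the deposited TPM values were scaled by the authors to transcript length and library total. The labels name an rRNA depletion kit and the methods a poly(A) kit, and the strand setting of counting was not given in the sources used here.

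Counts were rounded, filtered with filterByExpr, scaled by TMM and tested with the quasi-likelihood F-test of edgeR 4.0.16 (R 4.3.3) over all 12 libraries, with a mean for each group and 8 residual degrees of freedom. Benjamini-Hochberg adjustment covered all 14357 genes. The SE is the absolute log2 fold change over the square root of F. The model was tested on simulated data. Alternatives were DESeq2 1.42.0 and its size factors, upper quartile scaling, other low filters, limma 3.58.1 on log2(TPM + 1) and log2(TPM + 0.1), fits of the compared groups alone, a replicate block, and each library left out. Gene positions came from GENCODE M21 (55154 of 55335 identifiers matched without version). The methods call the libraries of a group biological replicates, without saying whether they came from separate mice or cultures, so p-values measure the spread between these libraries.

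The 9 genes were named whatever their result. From each pathway list, the rule took up to 2 rises and 2 falls a comparison past the threshold, with over 3 counts in each library and 10 CPM in the higher group. Values of these genes in further comparisons, of Csf2 and of single markers were added after they were seen. The members and lists were chosen with earlier results of these data known. A gene of the pathway and a gene list were left out and are not reported here.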

Additional observations from a re-analysis of the deposited data

Results flagged for a closer look

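The LPS response differed with and without JSH-23 for 3 of the 9 genes by the test of the difference itself, with edgeR's quasi-likelihood test and 3 libraries per group. For Cish the log2 difference was -1.031 (adjusted p = 1.08e-06), for Stat5a -0.303 (adjusted p = 0.0022) and for Stat2 -0.224 (adjusted p = 0.00893). The value of Cish kept its sign and its call in every alternative run, and those of Stat5a and Stat2 did not pass on TPM values.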

How the results depend on the processing

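Of 1278 alternative values of the 9 genes over all comparisons, 1217 kept their direction and their side of the threshold. Of these 1217, 743 came from runs with 1 library left out, which share most of their libraries with the main fit. On each of the TPM scales, 45 values were kept and 8 turned direction. There, 5 more came to pass and 5 no longer passed. Directions turned mainly on the TPM values in limma (pseudocounts 1 and 0.1), which sum to the same total in each library and carry no composition correction such as TMM. WTL against WT gave -0.170 and -0.171 for Stat3, -0.005 and -0.005 for Stat4, -0.026 and -0.026 for Jak2 and -0.021 and -0.021 for Socs2. After JSH-23 LPS gave -0.174 and -0.175 for Stat3 (-0.046 under upper quartile scaling) and -0.049 and -0.049 for Jak2. In both of these comparisons the falls of Stat3 on TPM values passed in limma (adjusted p from 0.00332 to 0.00411). WTL against WT + JSH23 gave -0.063 and -0.063 for Stat3. The interaction of Stat4 was 0.027 and 0.028, and with 1 library left out it ran from -0.063 to 0.034. Relative to TMM scaling, the median of all genes moved by -0.213 and -0.302 in WTL against WT.

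Over 2-fold, JSH-23 under LPS gave 2 members with DESeq2 and with its size factors in edgeR, adding Socs1 at -1.01, and 1 to 2 with 1 library left out. The interaction gave 0 on both TPM scales, where Cish was -0.852 and -0.945, and 0 to 1 with 1 library left out. Same-numbered libraries had r from -0.03 to 0.04 between WT and WTL, where unlike numbers had -0.10 to 0.06. Between the JSH-23 groups same numbers had 0.06 to 0.33, all positive, where unlike numbers had -0.27 to 0.15. The numbers were not taken as pairs in the main fit, and whether those of the JSH-23 groups mark shared cultures was not tested. With a replicate block the interaction passed for 4 members, adding Jak2 (-0.151, adjusted p = 0.0309), and 8 passed in each LPS comparison, as without the block. The lowest expected count of a member in any library was 261 (Cish in WT), and the part of counting depth in the results was not tested.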
